A study of Homo sapiens with 9 samples.

Results

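The genes described here encode 9 transcription factors and cofactors that set blood cell lineage: GATA1, GATA2, the GATA partner ZFPM1 (also called FOG1), the zinc finger repressors GFI1 and GFI1B, the TAL1, LYL1 and LMO2 parts of a DNA-binding complex, and SOX4. They were picked by symbol from a table of 20637 genes, which held all 9. Of these, 8 passed the filter on low values (10 or more normalized reads in no fewer than 3 of the 9 libraries), as did 12569 genes in all. GATA1 passed only through the daunorubicin-resistant cells and GFI1B only through the cytarabine-resistant cells, and TAL1 did not pass. The cells were HL-60, a human promyelocytic leukaemia line. They were sampled as parental cells, as HRA cells (resistant to cytarabine, Ara-C, and kept in 100 nM of it) and as HRD cells (resistant to daunorubicin, DNR, and kept in 30 nM of it), with 3 biological replicates per group. Each resistance was represented by 1 line with its drug present, so the drug, the resistance and the history of that line cannot be told apart, and p-values measure the spread between these samples.

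GATA factors bind the letters GATA in DNA. GATA2 acts in stem and progenitor cells and in mast cells, and GATA1 acts with ZFPM1 in red cell precursors and megakaryocytes and with other partners in eosinophils and mast cells. TAL1, or its relative LYL1, pairs with an E protein and is joined to GATA factors by the bridging protein LMO2. GFI1, which neutrophil formation needs, and GFI1B, which red cells and platelets need, bind sites with the core letters AATC and silence genes by recruiting the demethylase LSD1 with CoREST proteins and histone deacetylases. SOX4 is a factor of early progenitors.

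The RefSeq promoter windows of the members with the largest changes, GFI1B, GATA1 and SOX4, are shown because GATA and GFI1 proteins are known to regulate genes of their own families. Each window is the 250 bases before an annotated start on the plus strand of GRCh38.p14. Capitals mark GATAA or its reverse complement TTATC, and AATC or its reverse complement GATT.
GFI1B upstream start, chr9:132945281-132945530: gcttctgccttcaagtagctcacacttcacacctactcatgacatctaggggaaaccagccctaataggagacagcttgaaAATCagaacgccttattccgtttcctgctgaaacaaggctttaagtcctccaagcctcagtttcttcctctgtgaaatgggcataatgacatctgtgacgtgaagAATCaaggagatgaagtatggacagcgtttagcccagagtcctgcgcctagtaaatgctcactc
GFI1B downstream start, chr9:132978444-132978693: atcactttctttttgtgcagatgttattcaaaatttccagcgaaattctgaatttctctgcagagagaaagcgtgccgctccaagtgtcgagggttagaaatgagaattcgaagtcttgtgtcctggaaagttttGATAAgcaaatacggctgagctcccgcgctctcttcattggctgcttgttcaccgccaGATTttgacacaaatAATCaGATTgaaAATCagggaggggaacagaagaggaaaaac
GATA1, chrX:48786340-48786589: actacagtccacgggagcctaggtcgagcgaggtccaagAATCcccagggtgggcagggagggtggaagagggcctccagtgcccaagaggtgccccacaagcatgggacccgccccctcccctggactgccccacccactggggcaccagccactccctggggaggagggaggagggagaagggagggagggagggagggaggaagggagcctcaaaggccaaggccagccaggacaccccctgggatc
SOX4, chr6:21593501-21593750: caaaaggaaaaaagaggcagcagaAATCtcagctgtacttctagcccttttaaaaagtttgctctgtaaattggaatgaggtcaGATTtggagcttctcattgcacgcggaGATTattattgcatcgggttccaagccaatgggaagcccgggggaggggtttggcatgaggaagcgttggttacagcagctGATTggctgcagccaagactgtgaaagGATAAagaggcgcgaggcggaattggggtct
The downstream GFI1B window and the SOX4 window each held 1 GATAA and 4 AATC matches, and 3 of those in GFI1B lie close together near the end of the window. The upstream GFI1B window held 2 AATC matches and the GATA1 window 1, and neither held GATAA. Of the 13 windows found for 8 of the 9 members, 4 held GATAA and 8 held AATC, whereas 20.4% and 64.8% of all 35116 RefSeq windows of this length did. A match describes letters and is not a bound site, and gene counts do not say which GFI1B start was used.

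Recovered reads ran from 20822709 to 66563328 per library. All 8 promyelocyte and granulocyte markers were in the table, and their summed level was 294928 to 338913 normalized reads in parental, 270271 to 300847 in HRA and 223479.8 to 284994 in HRD libraries, most of it MPO. Some other markers moved, in both directions, whereas AZU1 and CEBPE differed in no comparison at the threshold used. LYZ had means of 3142, 6882 and 11028 in parental, HRA and HRD cells. CTSG had 10855, 4120 and 6728, and PRTN3 had 2423, 748 and 1914. PRTN3 in HRD against parental cells was not called (limma, Benjamini-Hochberg adjusted p = 0.502). ELANE, the neutrophil elastase gene, was near 0 throughout, with 6, 4 and 2 reads in all parental, HRA and HRD libraries. HL-60 cells are known to express this gene, and the annotation behind the counts is not given in the sources used here, so its part in the low ELANE value was not tested. Of 6 erythroid markers 3 were in the table, with sums of 14.6 to 20.9, 17.1 to 20.9 and 18.2 to 19.6 in the same order. The 6 mast cell and basophil markers summed to 49.5 to 57.7, 77.5 to 96.0 and 148 to 160.3. HDC, the histamine-forming enzyme (means 28.6, 66.8 and 104), carried the higher sum in HRA, where MS4A2 was not higher (means 24.3, 19.2 and 40.9). CPA3 and FCER1A had no read in parental cells, and TPSAB1 and TPSB2 had none in HRA. More cells of a type and more RNA per cell cannot be told apart in bulk RNA, and the part of these markers in the results was not tested.

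Among the repressors, GFI1B was the member with the largest difference. It stood at 1.12, 3.68 and 1.499 in parental replicates 1, 2 and 3, 65.6, 161 and 43.9 in HRA and 4.46, 4.52 and 6.41 in HRD, in normalized reads. Every HRA library was above every other library, and HRA replicate 2 was the highest. The values rest on 6 reads in all parental, 249 in all HRA and 18 in all HRD libraries. In HRA against parental cells, the log2 fold change on the log2(value + 1) scale was 4.75 ± 0.51 (SE of the limma fit, Benjamini-Hochberg adjusted p = 0.000231 over all tested genes), and the ratio of depth-scaled reads was 45.3 (95% counting interval 20.5 to 125). GFI1B was lower in HRD than in HRA cells, with a log2 difference of −3.69 ± 0.51 (adjusted p = 0.000391). HRD libraries lay above the parental ones without overlap, but at 3 to 9 reads each, and the log2 fold change of 1.06 ± 0.51 (95% interval −0.05 to 2.16) did not pass (adjusted p = 0.161).

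GFI1, which all groups expressed, stood at 2205, 2072 and 2113 in parental replicates 1, 2 and 3, 2095, 2151 and 1964 in HRA and 2444, 2632 and 2524 in HRD. The HRD libraries were above all others, and the parental and HRA libraries overlapped. GFI1 rose in HRD by a log2 fold change of 0.25 ± 0.07 against parental cells (adjusted p = 0.0306) and of 0.29 ± 0.07 against HRA (adjusted p = 0.0125). The adjusted p of the first rose past 0.05 in a fit of the 2 groups alone (0.0800), without parental replicate 2 (0.0976), without parental replicate 3 (0.0674), without HRD replicate 2 (0.107), without HRD replicate 3 (0.0639) and without replicate 2 of every group (0.291), with all alternatives between 0.0145 and 0.291. For the second this happened without HRA replicate 3 (0.0604) and without replicate 2 of every group (0.105), with all alternatives between 0.00266 and 0.105. In HRA the log2 fold change was −0.04 ± 0.07, with a 95% interval of −0.20 to 0.12.

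Among the GATA factors, GATA1 was low in every library and highest in HRD. Its normalized reads were 0, 1.23 and 3.00 in parental replicates 1, 2 and 3, 2.09, 4.06 and 2.44 in HRA and 14.4, 24.1 and 19.2 in HRD. The HRD libraries did not overlap the others, and parental and HRA libraries overlapped each other. These are 3, 8 and 63 reads over the parental, HRA and HRD libraries, a depth-scaled ratio of HRD to parental cells of 19.0 (95% counting interval 6.20 to 94.4). GATA1 rose in HRD by a log2 fold change of 3.26 ± 0.56 against parental cells (adjusted p = 0.00193) and of 2.39 ± 0.56 against HRA (adjusted p = 0.00853). Against HRA the threshold was missed without replicate 2 of every group (0.0589), with all alternatives between 0.00228 and 0.0589. In HRA against parental cells the log2 fold change was 0.86 ± 0.56 (95% interval −0.36 to 2.09, adjusted p = 0.321).

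GATA2, the GATA factor of progenitors, stood at 1629, 1812 and 1057 in parental replicates 1, 2 and 3, 2352, 2535 and 1664 in HRA and 2316, 3397 and 2290.1 in HRD. Replicate 3 was the lowest and replicate 2 the highest library in every group. GATA2 rose in HRD against parental cells by a log2 fold change of 0.84 ± 0.22 (adjusted p = 0.0184), with no overlap between the groups. This p exceeded 0.05 without parental replicate 3 (0.0656) and without HRD replicate 2 (0.0677), with all alternatives between 0.000589 and 0.0677. In HRA the groups overlapped and the log2 fold change of 0.56 ± 0.22 did not pass (adjusted p = 0.114). With the replicate number as a block over all 9 libraries, an alternative to the main test, the adjusted p was 0.00767 (range over alternatives 0.00767 to 0.336). The ratio of HRA to parental cells within replicates 1, 2 and 3 was 1.44, 1.40 and 1.57. HRD and HRA differed by 0.29 ± 0.22 (95% interval −0.20 to 0.77, adjusted p = 0.353). GATA2-AS1, an antisense RNA beside GATA2, had means of 554 ± 95.8, 655 ± 66.7 and 671 ± 67.2 (SD, n = 3) and passed in no comparison. Whether counting used strand is not given in the sources used here, so the 2 genes may share reads.

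ZFPM1, the cofactor of GATA1, stood at 25.8, 24.5 and 31.5 in parental replicates 1, 2 and 3, 16.8, 23.0 and 24.4 in HRA and 8.43, 27.1 and 31.0 in HRD. The HRA libraries lay below the parental ones without overlap, and HRD replicate 1 was the lowest library of all. The log2 fold change was −0.35 ± 0.43 in HRA (95% interval −1.29 to 0.59, adjusted p = 0.618) and −0.46 ± 0.43 in HRD (−1.40 to 0.48, adjusted p = 0.485). Without HRD replicate 1 the HRD value was 0.0928.

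SOX4, the progenitor factor, stood at 684, 701 and 606 in parental replicates 1, 2 and 3, 699, 588 and 666 in HRA and 1176, 1054 and 1448 in HRD. All HRD libraries were above all others, and HRA and parental libraries overlapped. SOX4 rose in HRD by a log2 fold change of 0.88 ± 0.13 against parental cells (adjusted p = 0.000653) and of 0.90 ± 0.13 against HRA (adjusted p = 0.000451). In HRA against parental cells it was −0.03 ± 0.13, with a 95% interval of −0.30 to 0.25 (adjusted p = 0.909).

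Of the TAL1 complex, TAL1 itself had 1 read in the parental, 4 in the HRA (all in replicate 1) and 0 in the HRD libraries. It was not detectable at this depth in HRD cells, where 3 reads in 1 library correspond to 1.49 to 4.52 normalized reads, and it could not be tested. LYL1, its relative, stood at 818, 513 and 495 in parental replicates 1, 2 and 3, 1006, 928 and 788 in HRA and 406, 931 and 777 in HRD. Parental replicate 1 was the highest parental library, and HRD replicate 1 was the lowest of all 9. The log2 fold change of LYL1 was 0.61 ± 0.28 in HRA (95% interval 0.00 to 1.21, adjusted p = 0.158) and 0.17 ± 0.28 in HRD (−0.44 to 0.77, adjusted p = 0.717). Over 741 tested coding genes of chromosome 19, where LYL1 lies, the median in HRA was 0.30, and its part in the LYL1 value was not tested. LMO2, the bridging protein, stood at 3637, 4379 and 3777 in parental replicates 1, 2 and 3, 4475, 4359 and 4193 in HRA and 4015, 4328 and 3767 in HRD. The groups overlapped. Its log2 fold change was 0.15 ± 0.09 in HRA (95% interval −0.05 to 0.34, adjusted p = 0.278) and 0.04 ± 0.09 in HRD (−0.15 to 0.23, adjusted p = 0.788).

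**Figure D1:**
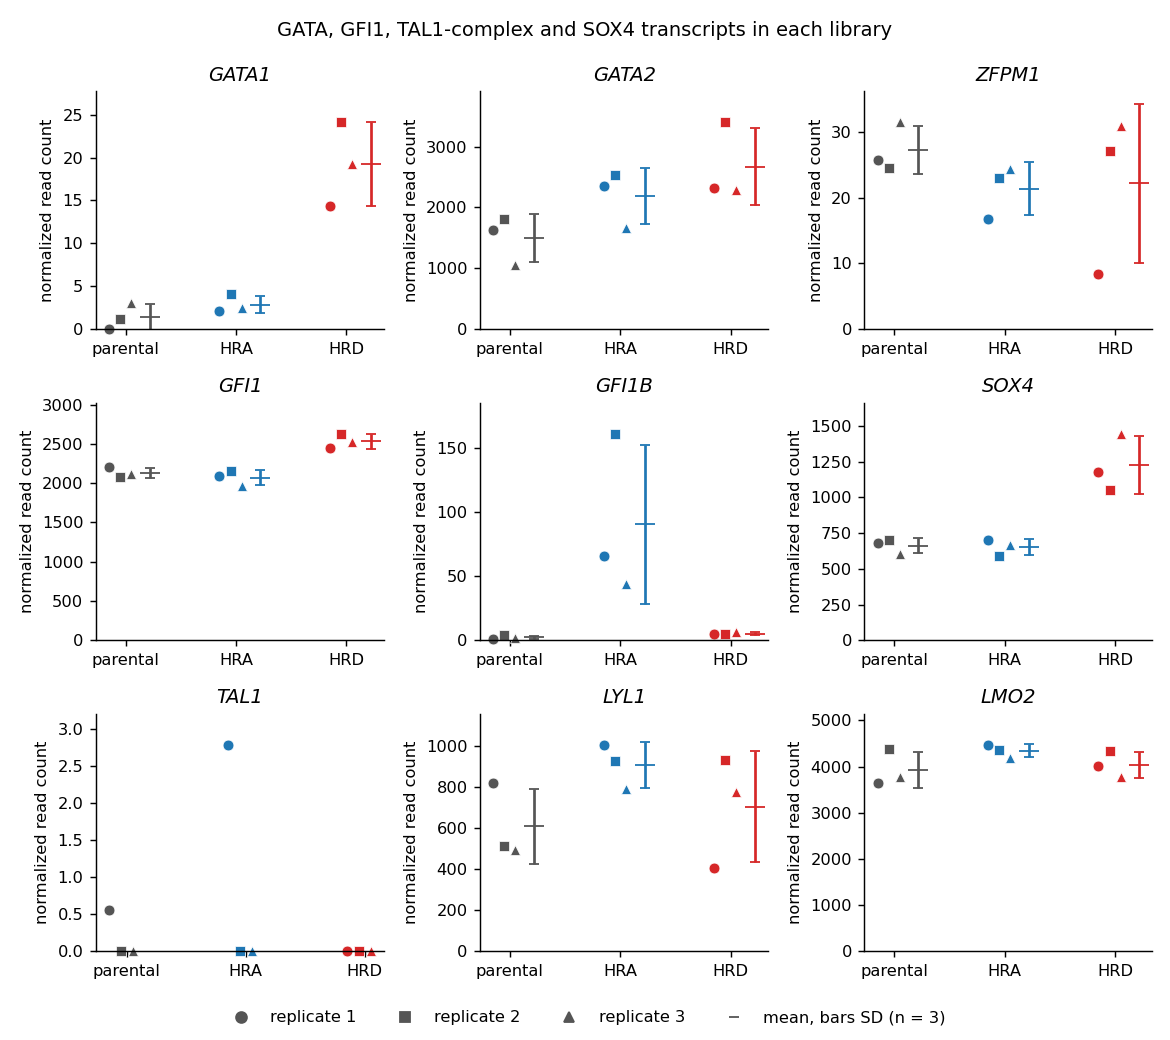
Normalized read count (vertical axes, linear from 0) of each gene in the 9 libraries, with a symbol for each replicate number and the mean and SD of 3 replicates beside them (not drawn for TAL1). GFI1B is high in the HRA libraries, and GATA1, GFI1 and SOX4 are highest in the HRD libraries.

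Of the 8 tested members, 1 passed in HRA, the higher GFI1B, where 15.2% of all tested genes passed, 9.13% higher and 6.1% lower. Without overlap between the groups, 1 member was higher (19.3% of all genes) and 1, ZFPM1, was lower (18.7%). In HRD against parental cells 4 rose (GATA1, GATA2, GFI1 and SOX4) and 0 fell, where 22.8% of all genes passed, 10.7% higher and 12.0% lower. There 5 members, the same 4 and GFI1B, were higher without overlap (17.1% of all genes) and 0 were lower (18.2%). In HRD against HRA 4 members passed, where 30.1% of all genes did: 3 were higher (GATA1, GFI1 and SOX4, against 13.9% of all genes) and 1, GFI1B, was lower (16.2%). These 4 were also the members without overlap, beside 22.8% of all genes higher and 24.2% lower. The members' median log2 fold change was 0.35 in HRA and 0.55 in HRD, and over all tested genes it was −0.01 and 0.01. GATA1 and GFI1B could be tested only because a group held them high, so these counts and medians lean upwards. HRA and HRD were set against the same parental libraries.

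**Figure D2:**
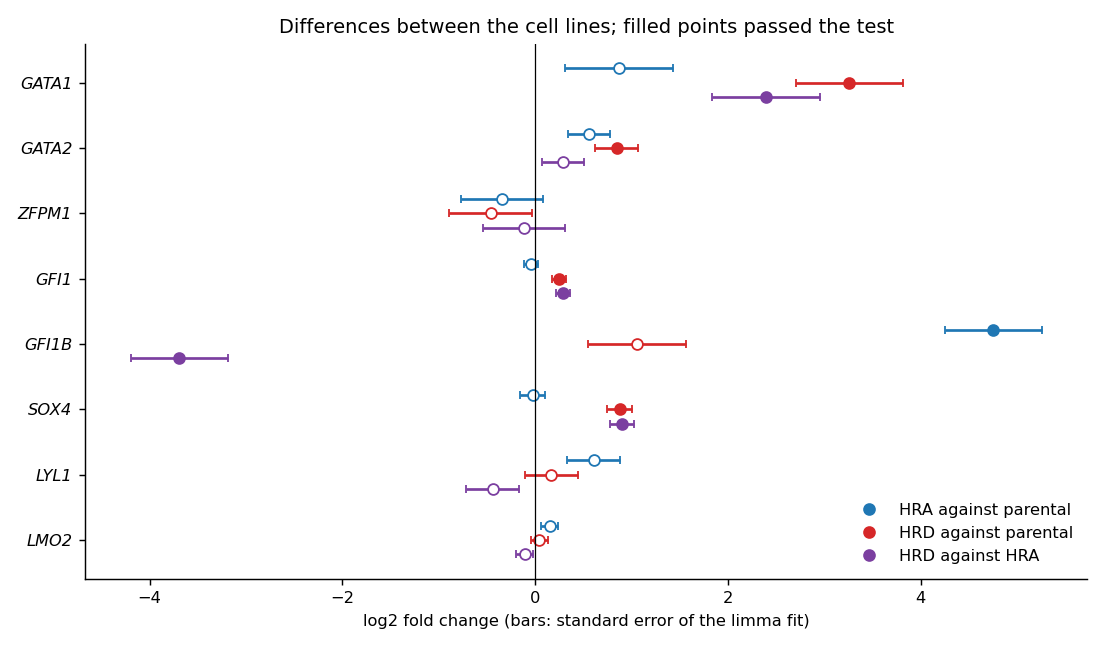
Log2 fold changes (horizontal axis) of the 8 tested genes in the 3 comparisons, with standard errors of the limma fit as bars and filled points where the adjusted p was below 0.05. GFI1B lies at 4.75 in HRA and 1.06 in HRD against parental cells, and GATA1 at 0.86 and 3.26.

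Chromosome neighbours were read from the gene order in RefSeq. Around GFI1B on chromosome 9, the 5 tested coding genes on each side had a median log2 fold change of 0.02 in HRA (−0.77 to 0.46). Of these 10 neighbours 0 passed in HRA, where 15.2% of all tested genes did. In HRD 4 of these 10 fell, with a median of −0.31. Around GATA1 on chromosome X, 2 of 10 rose in HRD, with a median of 0.10. Around SOX4 on chromosome 6, 2 of 10 rose in HRD, with a median of 0.05 and a highest value of 0.94. Around GATA2 on chromosome 3, 1 of 10 rose in HRD, with a median of 0.10. Over all tested genes 10.7% rose and 12.0% fell in HRD, so 1 or 2 risen neighbours of 10 is near the background.

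**Figure D3:**
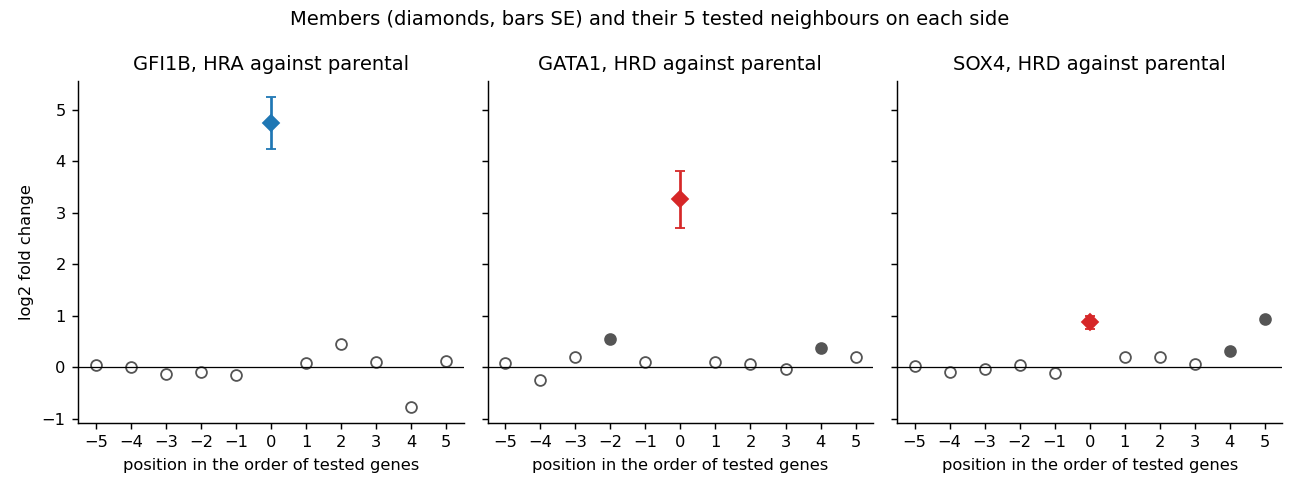
Log2 fold change (vertical axis) of GFI1B in HRA and of GATA1 and SOX4 in HRD (diamonds, bars are standard errors) and of the 5 tested coding genes on each side in chromosome order (circles, filled where the adjusted p was below 0.05). The neighbours of GFI1B lie between −0.77 and 0.46, and those of GATA1 between −0.24 and 0.55.

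Genes listed as targets of GATA1 and GATA2 in mast cells, basophils and eosinophils numbered 17, all in the table, of which 11 were tested. The list was chosen with earlier results of these data known, so its counts are no independent test. TPSAB1, TPSB2, CPA3, KIT, FCER1A and CCR3 were too low to be tested, and MS4A2 and MS4A3 passed in neither line against parental cells. In HRD 8 rose and 1 fell, where 10.7% and 12.0% of all tested genes did, and the list median was 2.095 (log2) beside 0.01 over all genes. In HRA 7 rose and 0 fell, where 9.13% and 6.1% of all genes did, and the median was 1.21 beside −0.01. ENPP3 reached the filter only through HRA and PRG3 only through the resistant lines, so both had to be higher there to be counted. CLC, the Charcot-Leyden crystal protein of eosinophils, had means of 363 ± 197, 2264 ± 386 and 21467 ± 6532 normalized reads in parental, HRA and HRD cells (SD, n = 3, here and for other list genes), with log2 fold changes of 2.76 ± 0.32 and 5.97 ± 0.32. EPX, eosinophil peroxidase, had 217 ± 109.6, 938 ± 105 and 5655 ± 1817, with 2.21 ± 0.29 and 4.76 ± 0.29. Both genes were higher in HRD than in HRA, by 3.21 ± 0.32 and 2.55 ± 0.29, and so was PRG2, eosinophil major basic protein, by 2.35 ± 0.40. PRG2 had means of 17058 ± 8551, 15451 ± 2923 and 84628 ± 43759 in parental, HRA and HRD cells. In HRA against parental cells PRG2 did not pass (log2 fold change −0.007, adjusted p = 0.992). IL5RA, the interleukin 5 receptor of eosinophils, rose by 3.14 ± 0.36 in HRA and 2.77 ± 0.36 in HRD. PRG3, a relative of PRG2, rose by 2.82 ± 0.53 in HRD, from 11 to 104 reads over 3 libraries. In HRA the PRG3 value of 1.18 did not pass (adjusted p = 0.156). ENPP3, a basophil and mast cell surface enzyme, was the gene that fell in HRD, from 27 to 5 reads, and in HRA it rose by 1.84 ± 0.46 to 82 reads. The adjusted p of that rise was 0.0213 and exceeded 0.05 without parental replicate 2 (0.0635), without parental replicate 3 (0.0574), without HRA replicate 1 (0.0545), without HRA replicate 2 (0.0761), without HRA replicate 3 (0.0760) and without replicate 2 of every group (0.139), with all alternatives between 0.00607 and 0.139. RNASE2 and RNASE3, which rose in both lines, are close copies that may exchange reads. KIT, the mast cell growth factor receptor, had 1, 1 and 9 reads.

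Of 27 erythroid targets 17 were in the table and 10 were tested: 4 rose and 1 fell in HRA, and 4 rose and 0 fell in HRD. Of all tested genes, 9.13% rose and 6.1% fell in HRA and 10.7% rose and 12.0% fell in HRD. XK, a red cell membrane protein, rose by 1.31 ± 0.10 in HRA and 1.23 ± 0.10 in HRD, and CA2, a carbonic anhydrase, by 0.59 ± 0.13 and 1.04 ± 0.13. TRIM58, a ubiquitin ligase of late red cell precursors, had means of 145 ± 24.9, 29.7 ± 5.73 and 254 ± 18.4. It fell in HRA (−2.26 ± 0.20) and rose in HRD (0.81 ± 0.20, adjusted p = 0.0141), and the rise was no longer called without parental replicate 3 (0.0514) and without replicate 2 of every group (0.0609), with all alternatives between 0.000540 and 0.0609. NFE2, part of an erythroid and megakaryocyte factor, rose in HRA from 317 ± 104 to 1136 ± 243 (1.88 ± 0.34) and had a mean of 233 ± 105 in HRD. UROD, a haem synthesis enzyme, rose in both lines, in HRD by 0.27 ± 0.08 (adjusted p = 0.0281). The UROD call in HRD was missed in a fit of the 2 groups alone (0.0632), without parental replicate 1 (0.0691), without parental replicate 3 (0.0756), without HRD replicate 1 (0.0613), without HRD replicate 2 (0.0641) and without replicate 2 of every group (0.119), with all alternatives between 0.0116 and 0.119. ALAS2, the haem synthesis enzyme of maturing red cells, had 3 reads over the parental libraries and 0 in either resistant line. Of 18 megakaryocyte targets 13 were in the table and 2 were tested. SELP, which reached the filter only through the resistant lines and encodes P-selectin of platelets, rose in HRD by 1.48 ± 0.47, from 14 to 53 reads (adjusted p = 0.0432). That p exceeded the threshold with no filter (0.0802), with quantile normalization (0.0536), in a fit of the 2 groups alone (0.0814), in DESeq2 (0.0819), without parental replicate 1 (0.125), without parental replicate 3 (0.0566), without HRD replicate 1 (0.0781), without HRD replicate 2 (0.0875), without HRD replicate 3 (0.112) and without replicate 2 of every group (0.0625), with all alternatives between 0.0245 and 0.125, and the log2 fold change without parental replicate 1 was 0.95.

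Of 11 genes of the LSD1-CoREST corepressor, which GFI1 and GFI1B recruit, 10 were tested, and 0 rose and 1 fell in HRA and 1 rose and 1 fell in HRD. These shares are near those of all tested genes (9.13% higher and 6.1% lower in HRA, 10.7% and 12.0% in HRD). RCOR3, a CoREST protein, fell in both lines, from 1284 ± 123 to 837 ± 88.4 in HRA (−0.62 ± 0.11) and 922 ± 85.4 in HRD (−0.48 ± 0.11). HDAC2, a histone deacetylase, rose in HRD by 0.28 ± 0.07 (adjusted p = 0.0168), and the call was lost in a fit of the 2 groups alone (0.0607), without parental replicate 2 (0.0545) and without replicate 2 of every group (0.143), with all alternatives between 0.00183 and 0.143. The other 8 passed in neither line, among them KDM1A, which encodes LSD1 (0.08 and 0.07). Of 17 partners of the TAL1 complex 16 were in the table and 15 were tested, of which 2 fell in HRA and 1 rose and 1 fell in HRD, again not far from the shares of all genes. SSBP2, an adaptor protein, fell in HRA from 413 to 218 (−0.91 ± 0.14). LMO4, a relative of LMO2, fell there by 0.47 ± 0.10, a call missed without replicate 2 of every group (0.0810), with all alternatives between 0.000396 and 0.0810. In HRD these 2 genes had log2 fold changes of −0.02 and 0.19, and HRD exceeded HRA by 0.89 ± 0.14 and 0.66 ± 0.10. ID2, an inhibitor of E proteins, rose in HRD from 914 ± 202 to 1529 ± 95.9 (0.76 ± 0.17), which was missed without replicate 2 of every group (0.0512), with all alternatives between 0.000231 and 0.0512. RUNX1, a factor of blood stem cells, changed in HRD by −0.35 ± 0.08, missed without replicate 2 of every group (0.126), with all alternatives between 0.000654 and 0.126.

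Of 19 genes reported as repressed by GFI1 or GFI1B, 17 were in the table and 10 were tested. In HRA 2 rose and 0 fell, where 9.13% and 6.1% of all genes did, and in HRD 2 rose and 1 fell, where 10.7% and 12.0% did. These counts are near the background and are no result about the list. Its medians were 0.30 in HRA and 0.53 in HRD, beside −0.01 and 0.01 over all genes. EGR2 and CDKN1A did not reach the filter through the parental libraries alone but did through HRD, so the HRD median leans upwards. In HRA TGFBR3, a coreceptor of TGF-beta, rose from 38.8 ± 13.2 to 83.4 ± 6.51 (1.13 ± 0.25, adjusted p = 0.0119). This HRA call was missed without HRA replicate 2 (0.0501), with all alternatives between 0.00206 and 0.0501. SPI1, the myeloid factor PU.1, rose by 0.51 ± 0.15 (adjusted p = 0.0453), missed with no filter (0.0611), without parental replicate 2 (0.111), without parental replicate 3 (0.143), without HRA replicate 1 (0.143), without HRA replicate 2 (0.122), without HRA replicate 3 (0.0751) and without replicate 2 of every group (0.172), with all alternatives between 0.0167 and 0.172. The genes called in HRD were ID2, given above, TGFBR3 by 0.76 ± 0.25 (adjusted p = 0.0470) and BCL2L1, a survival factor, by −0.42 ± 0.12 (adjusted p = 0.0236). The TGFBR3 call in HRD was missed with no filter (0.0970), with quantile normalization (0.0849), in a fit of the 2 groups alone (0.102), without parental replicate 1 (0.129), without parental replicate 3 (0.139), without HRD replicate 1 (0.120), without HRD replicate 2 (0.0991) and without HRD replicate 3 (0.0627), with all alternatives between 0.0132 and 0.139. The BCL2L1 call was missed in a fit of the 2 groups alone (0.0640), without parental replicate 1 (0.0766), without parental replicate 2 (0.0805), without HRD replicate 1 (0.0536), without HRD replicate 3 (0.0676) and without replicate 2 of every group (0.105), with all alternatives between 0.00482 and 0.105. Of 11 family relatives 9 were in the table and 2 were tested. GATA6, a GATA factor of endoderm and heart that reached the filter only through the resistant lines, rose in both lines, from 28 reads over the parental libraries (mean 8.44 ± 0.938) to 132 in HRA (43.4 ± 6.97, 2.22 ± 0.28) and 159 in HRD (46.2 ± 11.1, 2.302 ± 0.28).

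**Figure D4:**
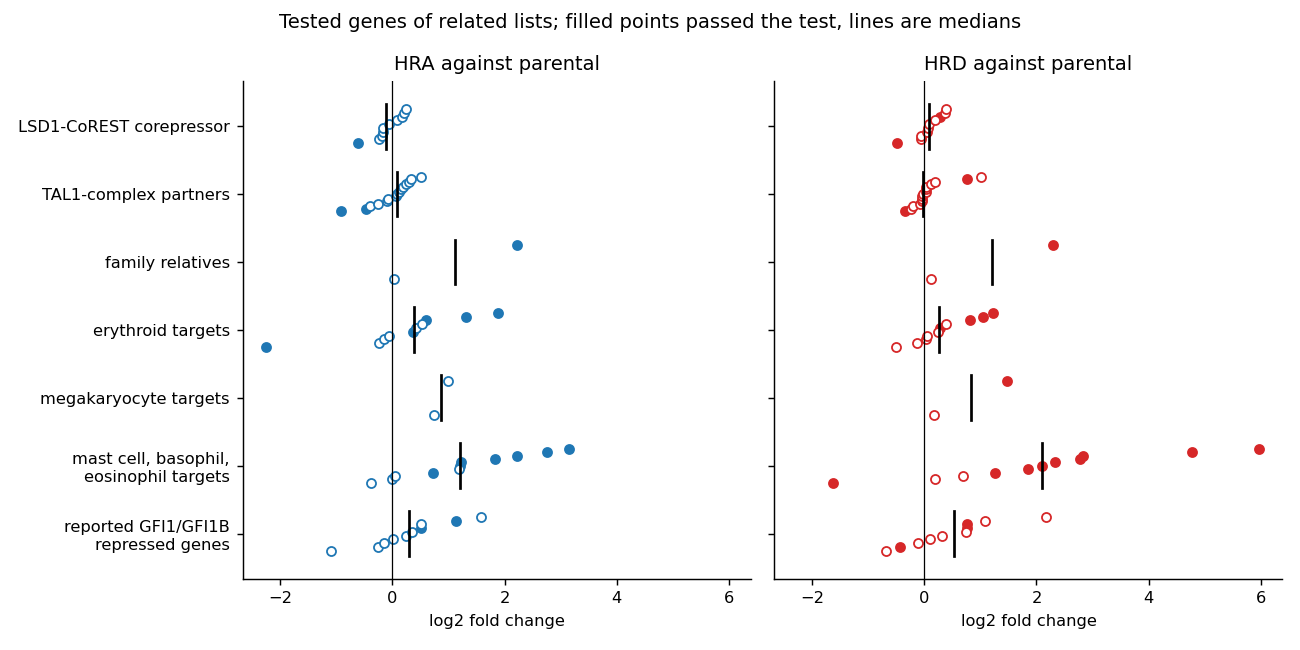
Log2 fold changes (horizontal axes) of the tested genes of 7 related lists in HRA and in HRD against parental cells, filled where the adjusted p was below 0.05, with the list median as a line. The mast cell, basophil and eosinophil targets have medians of 1.21 in HRA and 2.095 in HRD, and the corepressor genes −0.11 and 0.08.

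Likeness of pattern over the 9 libraries was the root mean square difference of log2(value + 1) values, each gene centred on its parental mean. Nearest to GFI1B were ZNF704 (0.67), CACNB1 (0.92) and SUCNR1 (0.93). GATA1 was nearest to ARAP3 (0.30), LRG1 (0.44) and LOC102724908 (0.46), and GATA2 to PLP2 (0.15), OSM (0.16) and SLC45A3 (0.17). For SOX4 the genes were ZSCAN16-AS1 (0.15), ARHGEF40 (0.15) and SMG1 (0.17), and for GFI1 GDAP2 (0.04), SNX3 (0.05) and GDI2 (0.05). LYL1 was nearest to TMED1 (0.08), RPLP2 (0.10) and SF3A2 (0.10), LMO2 to SLC31A1 (0.06), DCLRE1C (0.06) and VRK1 (0.06) and ZFPM1 to SCRN2 (0.30), TNK2 (0.30) and JUP (0.32). GFI1B, the member with the widest range, had the least close neighbours in pattern.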

How the data were processed

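RNA of the 3 groups was made into stranded polyA libraries, per the labels' protocols. Per the submitters' processing notes, the assembly was hg19 and the tools included HTSeq 0.11.1, TopHat2 2.1.1 and DESeq2. The signal deposited by the authors holds reads per gene over a library size factor. All values (100%) were whole multiples of a constant within 0.001, so reads could be recovered. edgeR 4.0.16 and DESeq2 1.42.0 on those reads were alternatives.

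The main test was limma 3.58.1 on log2(value + 1), fitted to all 9 libraries with a trend, and a gene passed where its Benjamini-Hochberg adjusted p, taken over 12569 genes, was under 0.05. The procedure was tested on simulated data with a common spread, where only well-expressed genes were changed, and only in HRA. It does not speak to calls at few reads, such as those of GATA1 and GFI1B. Permuting 3 against 3 libraries allows no p under 0.1 and was not done. Counting intervals are exact binomial (95%) and cover counting error only. Named are the 9 members, up to 4 passing genes of each list and comparison with the largest change, and the 3 genes nearest in pattern that reach a mean of 100 in a group. ENPP3 in HRD, PRG2 and PRG3 in HRA, UROD in HRA, RNASE2, RNASE3, KIT, KDM1A, ALAS2 and CDKN1A were chosen after their values were seen. So were MS4A2, MS4A3, LYZ, CTSG, PRTN3, AZU1, CEBPE and the untested mast cell, basophil and eosinophil genes. Members and lists were chosen with earlier results of these data known. Deviations from the group means correlated at 0.22, 0.38 and 0.14 between parental and HRA libraries sharing a number. The main test held no block for this number, and a fit with the block was an alternative. Promoters and gene order came from RefSeq GRCh38.p14.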

Additional observations from a re-analysis of the deposited data

Results flagged for a closer look

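HRD and HRA cells were each set against the parental libraries, and their effects differed in the direct limma comparison of HRD with HRA for 4 of the 8 tested members, where 30.1% of all tested genes passed. GATA1 and GFI1B, 2 of these 4, reached the filter on low values only through the group where they are high. HRD minus HRA, on the log2 scale, was 2.39 for GATA1, 0.29 for GFI1, −3.69 for GFI1B and 0.90 for SOX4. Among the eosinophil, basophil and mast cell genes it was 3.21 for CLC, 2.55 for EPX, 2.35 for PRG2, 1.64 for PRG3 and −3.46 for ENPP3. Among the erythroid genes it was 3.07 for TRIM58, −2.38 for NFE2 and 0.45 for CA2. The cofactors gave 0.45 for HDAC2, 0.35 for RCOR1, 0.28 for EHMT2, 0.89 for SSBP2, 0.66 for LMO4, −0.54 for RUNX1 and −0.45 for CBFA2T2. Of the genes reported as repressed, EGR2 gave 1.83 and MYB −0.36. EGR2 rested on 17 reads in HRA and 80 in HRD, where its mean was 29.2 ± 25.6 (SD, n = 3). ENPP3 rested on 82 reads in HRA and 5 in HRD. No HRA library reached the filter value for EGR2, and no HRD library did for ENPP3.

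Several of these differences were not called under some alternatives. The adjusted p exceeded 0.05 for EHMT2 with no filter (0.0710), with TMM scaling (0.0525), in edgeR (0.0524), without HRA replicate 1 (0.138), without HRA replicate 2 (0.173), without HRD replicate 1 (0.0729), without HRD replicate 2 (0.0848), without HRD replicate 3 (0.118) and without replicate 2 of every group (0.227), with all alternatives between 0.0284 and 0.227. For EGR2 it did so with no filter (0.0689), without HRA replicate 1 (0.115), without HRA replicate 2 (0.0591), without HRA replicate 3 (0.105), without HRD replicate 2 (0.148), without HRD replicate 3 (0.0524) and without replicate 2 of every group (0.137), with all alternatives between 0.00898 and 0.148, and the EGR2 difference without HRD replicate 2 was 1.18. For CA2 this happened without HRA replicate 1 (0.0821), without HRA replicate 3 (0.0630), without HRD replicate 2 (0.0767) and without replicate 2 of every group (0.0708), with all alternatives between 0.00514 and 0.0821. MYB was not called without HRA replicate 1 (0.0797), without HRA replicate 2 (0.0545), without HRD replicate 2 (0.0620) and without replicate 2 of every group (0.186), with all alternatives between 0.00277 and 0.186. CBFA2T2 was not called without HRA replicate 2 (0.0757), without HRD replicate 3 (0.0572) and without replicate 2 of every group (0.152), with all alternatives between 0.00596 and 0.152. RCOR1 was not called without replicate 2 of every group (0.0637), with all alternatives between 0.00234 and 0.0637.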

How the results depend on the processing

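Of 24 log2 fold changes, of 8 members in 3 comparisons, 14 kept their direction and side of the threshold under all alternatives that gave a value. GFI1B in HRA ran from 3.57 to 5.54 and GATA1 in HRD from 1.93 to 4.18. GATA1, GFI1B and ZFPM1 gave no value with the filter at 50. Direction changed only in values that were not called. SOX4 in HRA was −0.0914 to 0.0443 without 1 library and 0.0850 without replicate 2 of every group. ZFPM1 without 1 library was −0.788 to 0.0928 in HRD and −0.441 to 0.440 in HRD against HRA, where DESeq2 gave 0.0129. LMO2 in HRD was −0.0131 to 0.121 without 1 library. LYL1 in HRD was −0.0754 to 0.522 without 1 library and −0.179 without replicate 2 of every group. Genes called numbered 1915 (904 to 1539 without 1 library, 712 without replicate 2 of every group and 2774 with the replicate block) in HRA, 2863 (2034 to 2899 without 1 library, 1470 without replicate 2 of every group and 3639 with the replicate block) in HRD and 3787 (2391 to 3280 without 1 library, 1825 without replicate 2 of every group and 4673 with the replicate block) in HRD against HRA. Of single libraries, leaving out HRA replicate 1 gave the fewest calls in HRA and in HRD against HRA. Among the members, the block changed 1 call, GATA2 in HRA. Same-numbered libraries correlated at −0.08, 0.26 and 0.29 for parental with HRD and −0.03, 0.41 and 0.23 for HRA with HRD. The main test paired no libraries by number, and the block was fitted to all 9 libraries in each comparison. Fits with libraries left out also had fewer samples, and the cause of these changes was not tested. Few reads limit GATA1, GFI1B, ZFPM1 and TAL1.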
